A study of Arabidopsis thaliana with 8 samples.

Results

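Roots of the Arabidopsis thaliana mutant pye-1 were compared with wild-type roots after both had been without iron, to ask which transcripts depend on POPEYE (PYE) when iron is short. The comparison takes 4 of the 8 arrays of the study, the 2 arrays labelled pye, -Fe and the 2 labelled WT, -Fe, chosen by genotype and medium alone. Both genotypes are in the Columbia background, and all roots came from plants 7 days after germination that had been moved for 24 h to medium in which ferrous sulfate was replaced with 0.3 mM ferrozine, a chelator of ferrous iron. The other 4 arrays hold the same genotypes moved for 24 h to fresh medium with Fe(III)-EDTA, and they appear here only as the second condition. Each array carries RNA from about 320 whole roots pooled, cut just below the hypocotyl, and the 2 arrays of a group are described as biological replicates. A single mutant allele of PYE was used, so the loss of PYE and other differences of that line cannot be told apart. The array holds 22746 probe sets that are no controls, of which 15922 were bright enough to be tested.

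PYE is a basic helix-loop-helix transcription factor that is induced in roots short of iron, where it is strongest in the pericycle, and it is known as a repressor of several genes of iron distribution. It interacts with related factors such as ILR3, bHLH104 and bHLH115, which bind the ubiquitin ligase BRUTUS and act upstream of the bHLH genes that control iron uptake. Roots take up iron by acidifying the soil, releasing coumarins, reducing ferric iron and importing ferrous iron.

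Values are MAS5 signals, the linear brightness of a probe set. Median signal was 91.5 to 97.6 on the 8 arrays. The 4 arrays without iron correlated at 0.939 to 0.946 over the 22746 probe sets that are no controls, within as well as between genotypes. The 25S ribosomal RNA control read 247 and 265 on the wild-type and pye-1 arrays of replicate 1, against 1907 and 2703 on those of replicate 2. The comparison was set with replicate number as a block, so differences are taken within a replicate number. Tests are limma fits over all tested probe sets, "called" means a Benjamini-Hochberg adjusted p below 0.05, and differences are log2 pye-1 minus wild type with their SE (n = 2 arrays per group). With whole roots, fewer cells of a type and less RNA per cell cannot be told apart.

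The transcript of the mutated gene was low in the mutant. PYE (AT3G47640) had signals of 138 and 149 on the wild-type arrays and 25.0 and 28.2 on the pye-1 arrays. Both pye-1 arrays lay far below both wild-type arrays, and both stayed above the level of unspiked controls. PYE fell by 2.44 ± 0.29 on the log2 scale (adjusted p = 0.000656), the largest fall among probe sets that name 1 gene. The labels do not place its probe set relative to the mutation. With iron PYE read 56.7 and 65.1 in wild type and 19.1 and 15.0 in pye-1, a difference of -1.84 (adjusted p = 0.0171). These pye-1 signals were just above the level of unspiked controls on their arrays (18.7 and 12.8), so the size of that difference is uncertain. The difference between the media was not called (adjusted p = 0.631).

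The gene next to PYE was low as well. AT3G47650, which encodes a plastid chaperone of the DnaJ type, had signals of 191 and 205 in wild type and 77.0 and 46.6 in pye-1. It fell by 1.72 ± 0.20 on the log2 scale (adjusted p = 0.000539), and by 1.59 with iron (adjusted p = 0.00463). Of the 18 genes tested among the 20 on either side of PYE, AT3G47650 was the 1 called. An effect of the insertion on this neighbour and an effect of PYE on it cannot be told apart.

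Over all tested probe sets, 273 were called without iron (1.71%), 159 higher in pye-1 (0.999%) and 114 lower (0.716%). Among them 117 name 1 gene, 68 higher and 49 lower, 155 have no gene name here and 1 names several genes. The median difference was 0.86 among those higher and -0.89 among those lower, against -0.03 over all tested probe sets. More than 2-fold differences were measured for 57 of those higher and 44 of those lower. More than 4-fold differences were measured for 16 of those higher, and among those lower for PYE and BCAT4 alone. The smallest called rise was 0.37 and the smallest called fall -0.42, and 123 of the 273 lay among the 3981 brightest probe sets, where the median SE was 0.103, against 22 among the 3981 dimmest, where it was 0.305. The arrays of the genotypes did not overlap for 270 of the 273, against 36% of all tested probe sets. The exceptions were AT5G43150, AT3G59340 and a probe set without a name, probe-249817_at, all lower in the fit and all lost without the block (adjusted p of 0.836, 0.677 and 0.685).

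**Figure D1:**
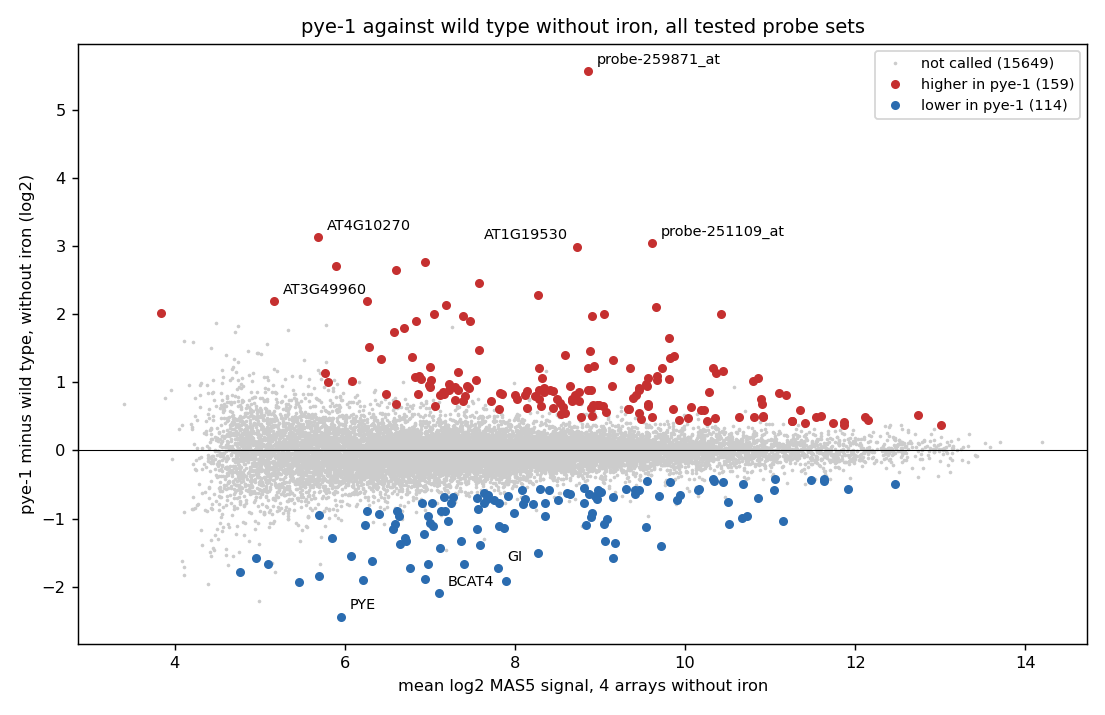
Each point is 1 of the 15922 tested probe sets. The horizontal axis is its mean log2 MAS5 signal on the 4 arrays without iron and the vertical axis its log2 difference, pye-1 minus wild type. The 159 called higher (red) reach 5.56 for a probe set without a gene name, whereas the 114 called lower (blue) reach -2.44 for PYE, and uncalled differences (grey) spread most where signal is low.

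The size of the set rests on the replicate number as a block and on single arrays. Without the block, 74 probe sets were called, all of them among the 273. Leaving out wild-type -Fe replicate 1 left 95 called, leaving out pye-1 -Fe replicate 1 left 149 and leaving out pye-1 -Fe replicate 2 left 140. There were 66 probe sets, 43 higher and 23 lower, called in each of the 8 refits that left out 1 array. A fit without an intensity trend in the variance called 22 probe sets. Of the 44 called results named by the rule given with the processing it kept 8. These were PYE, BCAT4, AT1G33055, AT4G27450, AT5G51010, AT1G69050, probe-259871_at and probe-251109_at. Other called probe sets in the text are not among the 44. Below, the adjusted p without the block, or the highest in a refit, stands beside a call without iron that was lost there. Losses of a called difference between the media in refits are given with the comparison with iron.

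Among iron regulators, a signalling peptide gene, BHLH101 and a ubiquitin ligase gene rose in pye-1, while the bHLH partners of PYE did not pass the test. The list holds 24 genes, of which 14 have a named probe set here. Of its 13 probe sets that passed the filter on low signal, 3 were called higher (0.999% over all probe sets) and 2 lower (0.716%), PYE itself and NAI1, with a median difference of 0.08. AT1G47400, which encodes a short peptide of the IRON MAN type that promotes the iron-deficiency response, had signals of 570 and 561 in wild type and 1783 and 1186 in pye-1. Both pye-1 arrays were clearly brighter than both wild-type arrays. AT1G47400 rose by 1.36 ± 0.14 (adjusted p = 0.000314). With iron it read 45.3 and 39.1 in wild type and 226 and 216 in pye-1, a larger log2 difference of 2.39 (adjusted p = 6.48e-06), although the difference between the media was not called (-1.03, adjusted p = 0.0666).

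BHLH101, a factor of the bHLH Ib group that works with FIT to switch on iron uptake genes, had signals of 343 and 380 in wild type and 959 and 849 in pye-1. The genotypes were well apart, and the rise was 1.32 ± 0.24 (adjusted p = 0.0145). With iron the signals were 42.1 and 20.2 in wild type and 74.5 and 83.3 in pye-1, a difference of 1.43 (adjusted p = 0.0262). The wild-type signal of 20.2 was under the level of unspiked controls on its array (23.7), so the size of that difference is uncertain. The call without iron was lost without the block (adjusted p = 0.109) and held in 5 of 8 refits, with an adjusted p of 0.244 when wild-type -Fe replicate 1 was left out.

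AT1G74770, a hemerythrin-type ubiquitin ligase related to BRUTUS, has 2 probe sets. The brighter read 1790 and 1479 in wild type and 2281 and 2321 in pye-1, a rise of 0.50 ± 0.11 (adjusted p = 0.0378). That call was lost without the block (adjusted p = 0.448), and held in 3 of 8 refits, with an adjusted p of up to 0.418. The dimmer probe set, at 134 and 270 against 201 and 293, overlapped between genotypes and was not called (0.35, adjusted p = 0.649). AT1G18910, a second ligase of this type, measured 0.12 (95% interval -0.12 to 0.35).

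The factors that pair with PYE or belong to the same branch did not pass the test. ILR3 read 950 and 988 in wild type and 940 and 1123 in pye-1, a difference of 0.08 (95% interval -0.13 to 0.30). bHLH104 measured 0.04 (-0.17 to 0.26), bHLH115 -0.14 (-0.34 to 0.07) and bHLH121 0.08 (-0.16 to 0.32). bHLH34, at 71.0 to 120 signal units, had a wider interval of -0.52 to 0.36 around -0.08. AT4G37850, a dim bHLH gene of the same subgroup as NAI1, measured -0.27 (-1.04 to 0.50). The intervals of ILR3, bHLH104, bHLH115 and bHLH121 all stop short of a 2-fold difference.

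No tested probe set of the iron uptake list was called, against 1.71% of all probe sets. AT3G12900 and AT3G13610 were called higher in a fit of only the 4 arrays without iron (adjusted p of 0.00016 and 0.0276), but not on those 4 arrays without the block. The fit of all 8 arrays without the block gave them an adjusted p of 0.602 and 0.808. The list holds 14 genes, 6 of them with a named probe set. The differences of the 5 tested ran from 0.04 to 0.94, with a median of 0.14. With iron AT3G12900, the enzyme that hydroxylates scopoletin to fraxetin, read 2.88 and 4.44 in wild type and 5.40 and 12.5 in pye-1. Each of these signals was under the level of unspiked controls on its array, and the SE draws on all 8 arrays. Without iron it read 1018 and 1200 in wild type and 1855 and 2410 in pye-1. The genotypes did not overlap, but the difference of 0.94 ± 0.23 missed the threshold (adjusted p = 0.0793), and it passed in 4 of 8 refits and with log2(signal + 16). AT3G13610, which makes the coumarin scaffold, read 4534 and 4986 in wild type and 6294 and 6077 in pye-1, a difference of 0.38 (adjusted p = 0.312, 95% interval 0.06 to 0.70). Of the others, the beta-glucosidase BGLU42 measured 0.14 (-0.09 to 0.37) and the kelch-repeat gene AT3G07720 0.12 (-0.23 to 0.46). The manganese and iron transporter AT3G58060 measured 0.04 (-0.82 to 0.89), with 269 and 303 in wild type and 294 and 293 in pye-1. Its interval also draws on the arrays with iron, where it read only 7.31 to 21.8. IRT1, FRO2, FIT and the PYE-bound genes NAS4, FRO3 and ZIF1 were not analysed here by name.

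**Figure D2:**
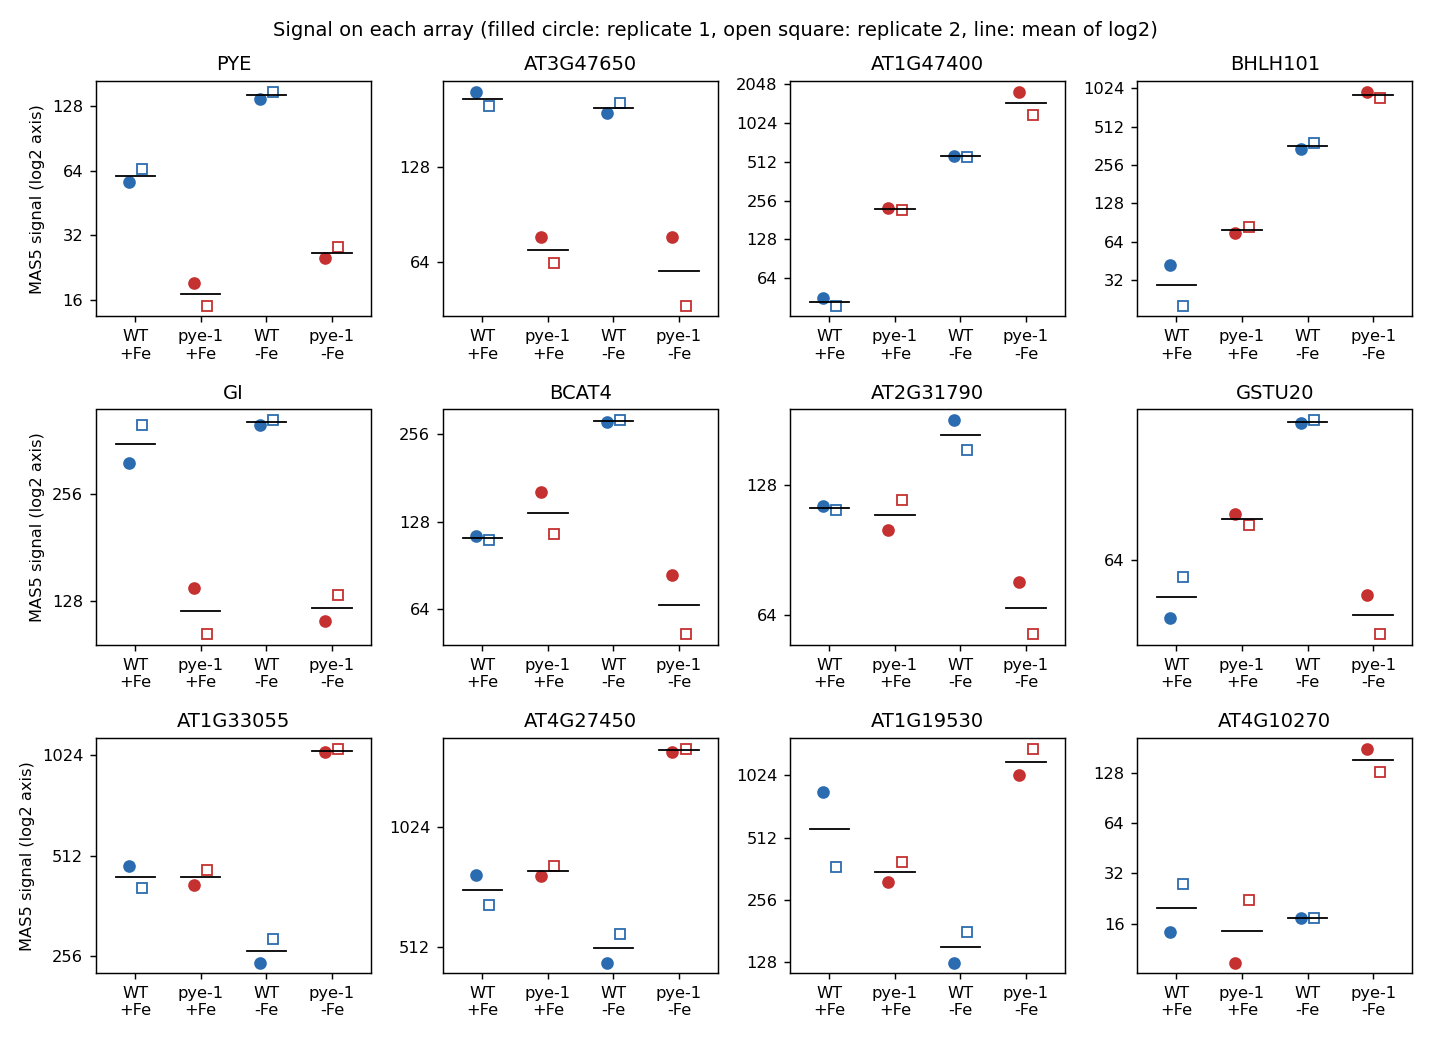
MAS5 signal (log2 axis, a scale of its own in each panel) of 12 genes on each of the 8 arrays, with wild type in blue, pye-1 in red, replicate 1 as filled circles, replicate 2 as open squares and the mean of the log2 signals as a line. PYE, AT3G47650 and GI were low in pye-1 on both media, AT1G47400 and BHLH101 high on both, whereas BCAT4 and the low-oxygen genes AT1G33055, AT4G27450, AT1G19530 and AT4G10270 separated between genotypes without iron.

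Of the 4 tested genes of methionine-derived glucosinolate synthesis, 3 were called lower in pye-1. Glucosinolates are sulfur-containing defence compounds of the cabbage family, and one branch starts from methionine. Of 29 listed genes 4 have a named probe set, and of these 3 fell and none rose, against 0.716% of all probe sets called lower. The median difference was -1.21. Without the block 2 members were called lower, and without the intensity trend 1. The list holds genes that had been named in earlier results of these arrays, so its count is a description. BCAT4, the aminotransferase that starts the elongation of the methionine side chain, read 282 and 286 in wild type and 84.0 and 52.6 in pye-1. Its pye-1 signals were also below the 111 to 162 of the 4 arrays with iron. BCAT4 fell by 2.10 ± 0.19 on the log2 scale (adjusted p = 9.4e-05), while with iron it measured 0.28 (adjusted p = 0.665), and the difference between the media was called (-2.38, adjusted p = 0.00143).

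AT2G31790, a glucosyltransferase (UGT74C1) linked to the last steps of the core structure, read 181 and 154 in wild type and 76.2 and 57.8 in pye-1. It fell by 1.33 ± 0.19 (adjusted p = 0.00274), with an adjusted p of 0.0689 when wild-type -Fe replicate 1 was left out. GSTU20, a glutathione transferase of the same pathway, read 110 and 111 against 55.8 and 47.9 and fell by 1.10 ± 0.22 (adjusted p = 0.0242). In this pair the arrays of the genotypes were again apart, but GSTU20 was called in 2 of 8 refits, with an adjusted p of 0.229 without wild-type -Fe replicate 1 and of 0.0729 without the block. For neither was the difference between the media called (adjusted p of 0.0843 for AT2G31790 and 0.0713 for GSTU20). UGT74B1, a glucosyltransferase that serves all glucosinolates, measured -0.06 ± 0.15 (adjusted p = 0.920). GTR1, a glucosinolate transporter outside the list that was picked after its values were seen, read 328 and 264 against 191 and 155 and fell by 0.77 ± 0.15 (adjusted p = 0.0215, 0.116 without the block and 0.340 without wild-type -Fe replicate 1).

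NAI1, a bHLH factor required for the endoplasmic reticulum bodies in which root beta-glucosidases are stored, read 590 and 580 in wild type and 367 and 320 in pye-1. It fell by 0.77 ± 0.12 (adjusted p = 0.00401), a call lost without the block (adjusted p = 0.0910) and without wild-type -Fe replicate 2. The media differed (-0.95, adjusted p = 0.0295), but not without the block (adjusted p = 0.410). JAL22, a jacalin-related lectin found with those beta-glucosidases, read 2339 and 1930 in wild type and 1343 and 754 in pye-1. It fell by 1.08 ± 0.15 (adjusted p = 0.00228, and 0.113 without the block). PYK10, the main beta-glucosidase of these bodies, measured 0.12 ± 0.08 (adjusted p = 0.604).

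GIGANTEA (GI), a protein of the circadian clock and of flowering, fell on both media. It read 401 and 413 in wild type and 113 and 134 in pye-1 without iron, and 313 and 402 against 140 and 104 with iron. All 4 pye-1 arrays were below all 4 wild-type arrays. The fall was 1.73 ± 0.17 without iron (adjusted p = 0.0002) and 1.56 with iron (adjusted p = 0.00172), and the media did not differ by the test (-0.17, adjusted p = 0.849). The other 3 tested members of the clock list, COR27 at -0.69 (adjusted p = 0.172), AT4G33980 at 0.02 and AT5G52660 at 0.13, were not called.

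Other large falls came from scattered gene families. AT1G21440, a phosphoenolpyruvate mutase family enzyme, read 607 and 449 in wild type and 201 and 168 in pye-1, and fell by 1.50 ± 0.20 (adjusted p = 0.00143). It measured 0.36 with iron, and the media differed (-1.87, adjusted p = 0.0124, and 0.111 without the block). AT5G35940, a second jacalin-type lectin, read 680 and 1044 in wild type against 343 and 330, and fell by 1.32 ± 0.17 (adjusted p = 0.00127, and 0.0686 without the block). It was also called lower with iron (-1.14, adjusted p = 0.0120).

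The remaining falls held less well. PDF2.1, a plant defensin, read 140 and 147 against 44.9 and 32.9 and fell by 1.90 ± 0.35 (adjusted p = 0.0148). Its call was lost without the block (adjusted p = 0.0686) and in 3 of 8 refits, with up to 0.135. The protease-inhibitor and lipid-transfer family gene AT4G22610 fell by 1.35 ± 0.23, with 923 and 922 in wild type and the uneven pair of 547 and 239 in pye-1 (adjusted p = 0.00816, 0.284 without the block and 0.0983 without pye-1 -Fe replicate 2). The methyltransferase AT5G38020 fell by 1.12 ± 0.18 (adjusted p = 0.00688, and 0.0938 without the block, 0.0886 without pye-1 -Fe replicate 2). The glycosyltransferase AT2G22590, AT3G26460 and AT5G14330 fell by 1.63, 1.15 and 1.93 (adjusted p of 0.0352, 0.0446 and 0.0498). All were lost without the block (0.281, 0.184 and 0.199), and each was called in at most 4 of 8 refits, with up to 0.495 without wild-type -Fe replicate 1, 0.393 without pye-1 -Fe replicate 2 and 0.355 without wild-type -Fe replicate 2. For AT5G14330 the 2 wild-type arrays themselves read 44.9 and 164.

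Genes known to be induced by low oxygen were higher in pye-1 without iron, and the media differed by the test for 4 of the 6 that rose. Plants short of oxygen induce a core set of transcripts through group VII ethylene response factors, many of them of unknown function. Of 28 listed genes 13 have a named probe set and 9 passed the filter on low signal. Of these 9, 6 rose and none fell, against 0.999% of all probe sets called higher, and the median difference was 1.10. AT4G10270 passed the filter only through its pye-1 -Fe arrays, and without it 5 of 8 rose, with a median of 1.04. Without the block 4 members were called, and without the intensity trend 2. The list holds genes that had been named in earlier results of these arrays, so its count is a description. With iron the median of the same 9 was 0.05 and none was called.

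AT1G33055 read 244 and 288 in wild type and 1043 and 1071 in pye-1. With iron its 4 arrays lay between 408 and 475, so that without iron wild type was below and pye-1 above all of them. It rose by 1.99 ± 0.12 (adjusted p = 2.99e-06), and the media differed by 2.00 (adjusted p = 0.000354). AT4G27450, an aluminium-induced type protein, showed the same order, with 467 and 553 in wild type, 1583 and 1615 in pye-1 and 651 to 817 with iron. It rose by 1.65 ± 0.12 (adjusted p = 8.57e-06), and the media differed by 1.50 (adjusted p = 0.00112).

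AT1G19530 read 127 and 178 in wild type and 1033 and 1380 in pye-1, and rose by 2.99 ± 0.30 (adjusted p = 0.00019). With iron its wild-type arrays disagreed at 847 and 370 while pye-1 read 312 and 390, and the media differed by 3.67 (adjusted p = 0.00151). AT4G10270, of the wound-responsive family, read 17.3 on both wild-type arrays, on 1 of them no brighter than the unspiked controls, and 178 and 129 in pye-1. It was low in wild type and on all 4 arrays with iron, where it lay between 9.34 and 27.5, and stood out on the pye-1 arrays without iron. The rise was 3.13 ± 0.46 (adjusted p = 0.00344), or 3.09 with signals raised to the control level. Without pye-1 -Fe replicate 1 the adjusted p was 0.106. The media differed by 3.59 (adjusted p = 0.0399), a call that held in none of the 8 refits.

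Smaller rises of the list were those of AT5G66985 at 0.98 ± 0.11 (adjusted p = 0.000447, and 0.275 without the block) and AT3G10020 at 0.56 ± 0.10 (adjusted p = 0.0106, 0.282 without the block and 0.135 without wild-type -Fe replicate 1). The calmodulin-like gene CML38 measured 1.10 ± 0.37 (adjusted p = 0.212) and AT3G27220 0.89 ± 0.22 (adjusted p = 0.0795). PDC2, a pyruvate decarboxylase of fermentation, read 663 and 765 against 650 and 835, a difference of 0.05 ± 0.11. Outside the list and picked after their values were seen, the universal stress protein gene AT3G03270 rose by 1.20 ± 0.13 (adjusted p = 0.000358) and AT1G72060 by 1.23 ± 0.21 (adjusted p = 0.00865). AT1G72060 lost its call without the block (adjusted p = 0.0686) and also without pye-1 -Fe replicate 2. AT2G41730, outside the list and among the 15 largest rises, rose by 1.46 ± 0.14 (adjusted p = 0.000126). It was also called higher with iron (0.88, adjusted p = 0.0160), and the difference between the media was not called (adjusted p = 0.294).

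Of 12 listed genes of iron enzymes and respiration 4 were tested, and 3 of these rose, against 0.999% of all probe sets, with a median of 0.47. Like all lists here, this one was chosen with earlier results of these data known, so its count is a description. SDH2-1 and SDH2-2 encode the iron-sulfur subunit of succinate dehydrogenase. SDH2-1 read 1550 and 1484 in wild type and 2249 and 2037 in pye-1, a rise of 0.50 ± 0.09 (adjusted p = 0.0181). SDH2-2 read 866 and 811 against 1121 and 1162, a rise of 0.45 ± 0.09 (adjusted p = 0.0275). CYTC-2, a cytochrome c, rose by 0.66 ± 0.13 (adjusted p = 0.0181), while the other cytochrome c gene, CYTC-1, measured 0.03 ± 0.09. None of the 3 calls held without the block (adjusted p of 0.155 for SDH2-1, 0.211 for SDH2-2 and 0.503 for CYTC-2). None held either without wild-type -Fe replicate 1, wild-type -Fe replicate 2 or pye-1 -Fe replicate 1, and 1 held without pye-1 -Fe replicate 2.

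AT2G21640, a marker of oxidative stress in mitochondria, read 66.5 and 41.2 in wild type and 200 and 153 in pye-1, and rose by 1.74 ± 0.27 (adjusted p = 0.00505). It was the 1 of 4 tested members of the oxidative and mitochondrial stress list to be called higher, against 0.999% of all probe sets, and without pye-1 -Fe replicate 1 its adjusted p was 0.0658. STZ, NDB2 and GSTU25 measured 0.49 ± 0.16, 0.19 ± 0.12 and 0.15 ± 0.10. SAPX, a stromal and mitochondrial ascorbate peroxidase that holds heme, read 550 and 492 against 914 and 908, and rose by 0.81 ± 0.09 (adjusted p = 0.000555).

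Wild type without iron was lower in SAPX than any other group, since the 4 arrays with iron lay between 957 and 1115. The thylakoid enzyme TAPX measured -1.68 ± 0.61 (adjusted p = 0.261), with 1 pye-1 array at the control level. AT5G51440, a small heat shock protein of mitochondria, read 83.5 and 101 in wild type and 421 and 278 in pye-1, a rise of 1.90 ± 0.20 (adjusted p = 0.000314). Picked after their values were seen, the co-chaperone Hop3 rose by 1.16 ± 0.22 (adjusted p = 0.0159) and the immunophilin AT5G48570 by 1.09 ± 0.22 (adjusted p = 0.0230). Both lost their call without the block (adjusted p of 0.145 and 0.103) and without pye-1 -Fe replicate 1 (0.218 and 0.283).

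The other large rises among named genes include 1 peroxidase gene with high signals on medium with iron. AT3G49960, a class III peroxidase, read 10.9 and 25.9 in wild type and 76.2 and 77.6 in pye-1 without iron, against 230 to 346 on the 4 arrays with iron. Its signal was thus low without iron in both genotypes, and less so in pye-1. The difference was 2.19 ± 0.26 (adjusted p = 0.000539), or 2.08 with signals raised to the control level, under which 1 wild-type array lay. The media differed by 2.46 (adjusted p = 0.0104, and 0.225 without the block).

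AT5G51010, of the rubredoxin-like family, read 77.9 and 92.8 in wild type and 301 and 367 in pye-1, and rose by 1.97 ± 0.14 (adjusted p = 1.03e-05). AT1G69050 read 45.6 and 66.9 against 156 and 239 and rose by 1.80 ± 0.20 (adjusted p = 0.000432). In pye-1 both were above all 4 of their arrays with iron. The media differed by 1.87 for AT5G51010 (adjusted p = 0.00112) and 1.97 for AT1G69050 (adjusted p = 0.0104, and 0.234 without the block). AT2G05540, a glycine-rich protein, rose by 2.19 ± 0.24 (adjusted p = 0.000327), from 40.8 and 31.3 to 160 and 167, and was also higher with iron (1.58, adjusted p = 0.0120). AT5G62210 rose by 1.51 ± 0.30 (adjusted p = 0.0223, 0.204 without the block and 0.216 without pye-1 -Fe replicate 2) and the ubiquitin ligase PUB19 by 1.35 ± 0.24 (adjusted p = 0.0126, and 0.138 without wild-type -Fe replicate 2).

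The largest rise of all was that of a probe set without a gene name. This probe set, probe-259871_at, read 69.8 and 65.3 in wild type and 3676 and 2774 in pye-1, a 47.3-fold difference (5.56 ± 0.12, adjusted p = 6.4e-11). With iron it read 105 and 76.0 against 1207 and 1088, a difference of 3.68 (adjusted p = 1.02e-08), so that it separated the genotypes on both media and more widely without iron (1.88, adjusted p = 0.000354). Another, probe-251109_at, read 237 and 311 in wild type and 2300 and 2187 in pye-1, against 1039 and 1055 in wild type and 2104 and 2256 in pye-1 with iron. Its pye-1 signals were thus alike on both media, whereas those of wild type were low without iron, and the genotype difference was 3.05 ± 0.11 without iron (adjusted p = 1.43e-08) and 1.06 with it (adjusted p = 0.00126).

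The third, probe-264953_at, read 46.1 and 48.1 against 300 and 344, a rise of 2.77 ± 0.31 (adjusted p = 0.000369), and lay between 24.3 and 55.5 with iron. Among falls, probe-258321_at (-1.91 ± 0.21, adjusted p = 0.000342) was low in pye-1 on both media, and probe-254687_at measured -1.89 ± 0.20 (adjusted p = 0.000327). The third fall, probe-245213_at, at -1.84 ± 0.32 (adjusted p = 0.0113, 0.118 without the block and 0.230 without wild-type -Fe replicate 1), rests in part on 1 pye-1 array at 16.3, which is under the control level, and measured -1.71 with signals raised to that level.

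Many lists had no called member, against 1.71% of all probe sets, and in lists this short a lack of calls says little. The 3 tested genes of iron-sulfur cluster assembly had a median of -0.17, led by HCF101, a plastid scaffold protein, at -0.69 ± 0.20 (adjusted p = 0.136). The 5 of tetrapyrrole and heme synthesis had a median of -0.09, with HEME2 at -0.40 ± 0.21 and HEMA2 at 0.33 ± 0.20. The 5 metal transporters had a median of 0.04, and among them the zinc transporters ZIP9 and ZIP6 measured 0.80 ± 0.32 (adjusted p = 0.327) and -0.26 ± 0.17. Of 5 auxin response genes none was called without iron, although GH3.3, which conjugates auxin to amino acids, was called with iron (1.52, adjusted p = 0.00807) and measured 0.64 ± 0.22 without it (adjusted p = 0.212).

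Markers of cell types and of other tissue were few by name and none was called, against 1.71% of all probe sets. With so few markers, a lack of calls says little about cell types. The root hair expansins EXPA18 and EXPA7 measured -0.07 ± 0.11 and 0.03 ± 0.11. AT1G62500, from the list of non-hair epidermis and cortex markers, measured 0.51 ± 0.37 and the mitotic kinase AUR1 -0.13 ± 0.13. Of the 3 tested genes of green tissue, LHCB4.1 read 359 and 297 in wild type and 264 and 288 in pye-1 (-0.24 ± 0.13), and RCA measured -0.10 ± 0.12. No gene of the endodermis, vascular and root cap lists was tested by name. The reference genes PEX4 and AT2G28390 measured 0.05 ± 0.12 and -0.03 ± 0.14. Among smaller lists, LTI30 and COR47 of water and cold stress measured -0.29 ± 0.12 and -0.01 ± 0.08, EIN3 of ethylene signalling 0.16 ± 0.09 and AT1G04770 of sulfur supply -0.25 ± 0.15.

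**Figure D3:**
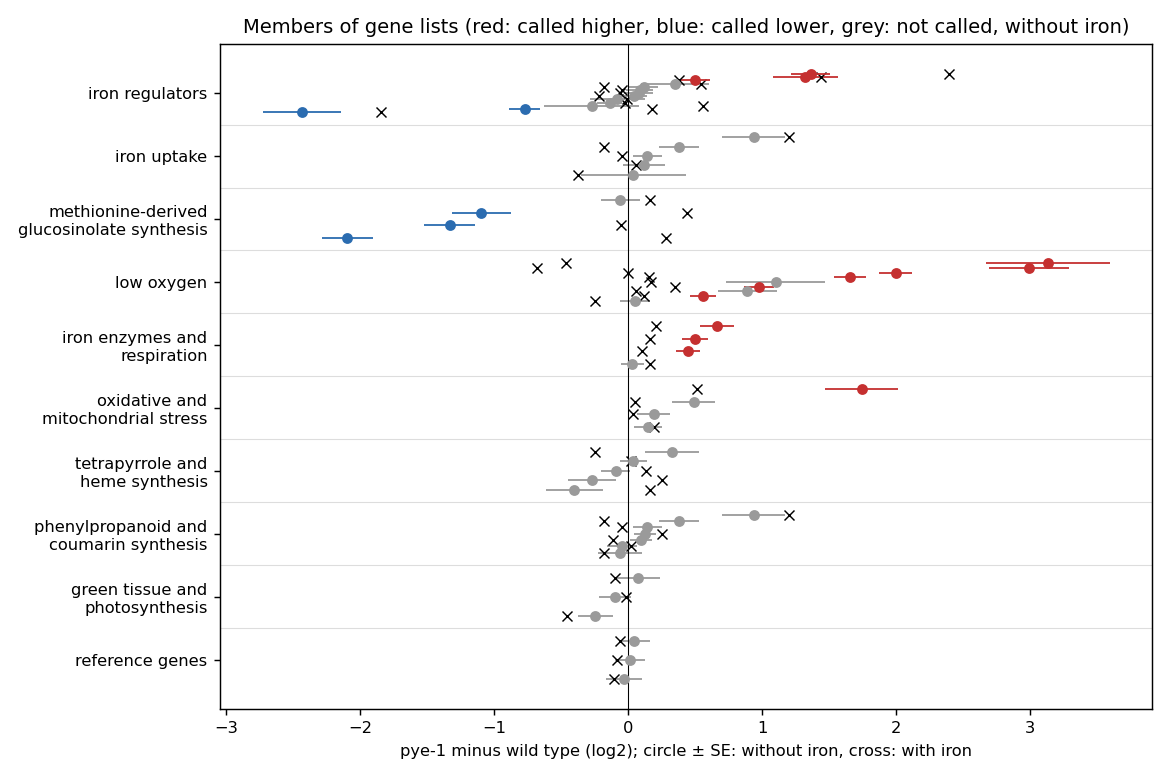
Log2 difference between pye-1 and wild type for every tested member of 10 gene lists. Circles with SE bars give the value without iron, red where called higher, blue where called lower and grey where not called, and crosses give the same gene with iron. The 6 red low-oxygen and 3 blue glucosinolate genes have crosses closer to 0 than their circles or on the other side of it, the farthest on the same side being AT5G66985 at 0.35, and PYE, at -2.44, has its cross at -1.84.

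The same genotypes with iron were measured on 4 other arrays, which gives a second comparison that shares no array with the first. With iron 55 probe sets were called (0.345%), 27 higher (0.17%) and 28 lower (0.176%), with 10 called without the block, 3 without the intensity trend and 7 to 79 when 1 array was left out. There were 27 called on both media, a count that was 6 without the block and 1 without the intensity trend. The 27 were 9.89% of those called without iron and 49.1% of those called with iron. They were 16 higher on both, 10 lower on both and 1 of opposite sign. The 10 of these with 1 gene name were PYE, AT3G47650, GI and AT5G35940, lower on both, AT1G47400, BHLH101, AT2G05540, AT2G41730 and AT3G56360, higher on both, and HIS1-3. HIS1-3, a linker histone of water stress, had a difference of 0.59 without iron and -0.56 with iron (adjusted p = 0.00417 for the difference between the media). Of these 10, BHLH101, AT5G35940, AT3G56360 and HIS1-3 lost the call without iron when the block was left out (0.215 for AT3G56360 and 0.505 for HIS1-3).

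Of the 159 probe sets higher without iron, 114 were above wild type with iron too, with a median of only 0.18 there, against 0.02 over all tested probe sets. Of the 114 lower, 84 were below wild type with iron, with a median of -0.16. The difference between the media was called for 56 of all probe sets (0.352%), and 49 of these were among the 273. That count of 56 was 14 without the block and 0 without the intensity trend, and it ranged from 13, without pye-1 +Fe replicate 2, to 133, without wild-type +Fe replicate 2. All 11 of the 49 that were lower had the more negative difference without iron. Of the 38 that were higher, 37 had the more positive difference without iron. The exception was probe-251677_at, at 0.82 without iron and 2.43 with iron. The 49 were chosen by their call without iron, and that difference is part of the interaction, so this direction was largely set by the choice. Of the 13 named above with such a call, BCAT4, AT1G33055, AT4G27450, AT1G19530, AT5G51010, probe-251109_at and probe-259871_at kept it without the block and in all 8 refits. NAI1, AT4G10270, AT1G21440, AT1G69050, AT3G49960 and probe-264953_at lost it without the block (adjusted p of 0.111 to 0.410) and in 3 or more refits. For the other 224 of the 273, a difference between the media was not called, which does not show that they were alike. Named genes with such a call outside the groups above include MGL, a methionine-degrading lyase, at 0.89 without iron and -0.58 with iron (adjusted p = 0.0129), and SP1L4, a microtubule protein, at 0.87 and -0.35 (adjusted p = 0.0285), both picked after their values were seen. Their calls without iron were lost without the block (adjusted p of 0.448 for MGL and 0.0686 for SP1L4) and in refits (up to 0.144 and 0.107).

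**Figure D4:**
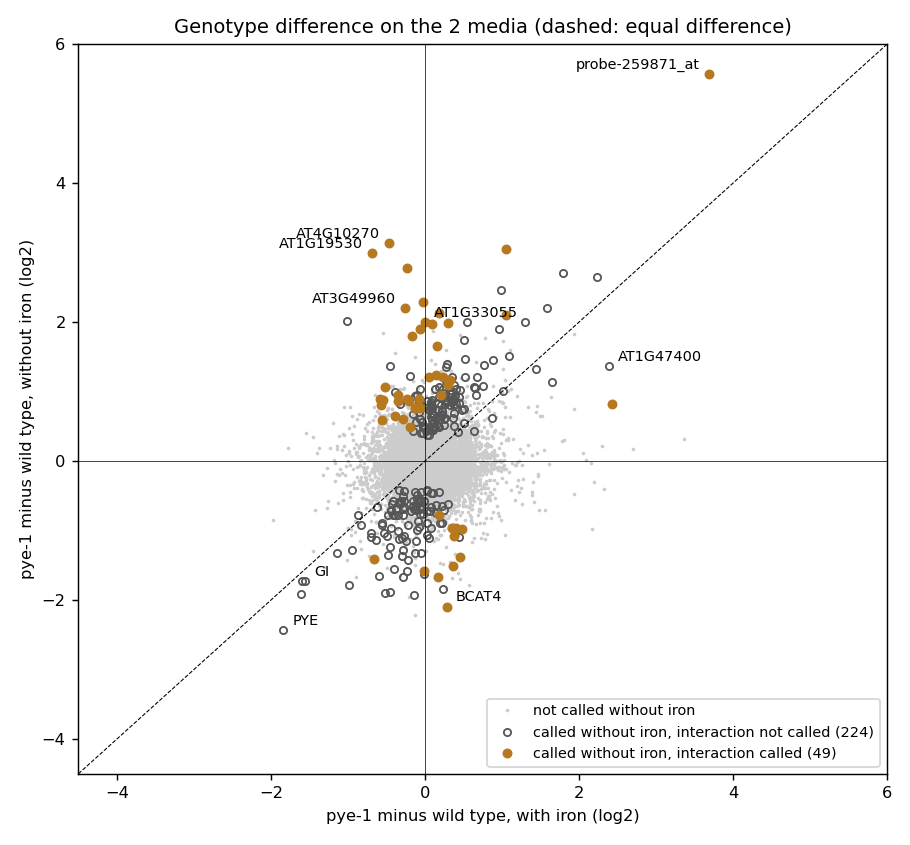
Log2 difference between pye-1 and wild type with iron (horizontal) and without iron (vertical) for the tested probe sets, with the dashed line where both are equal. Gold points are the 49 called without iron whose difference between the media was also called, open circles the 224 called without iron where it was not. PYE and GI lie near the dashed line, whereas AT1G19530, AT4G10270 and BCAT4 lie near 0 or on the other side of it on the horizontal axis.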

How the data were processed

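RNA from whole roots was hybridised to 8 Affymetrix arrays of 1 colour. The signal intensities deposited by the authors are MAS5 values per the submitters' processing notes, on a linear scale, and every array had a trimmed mean of 250.02, so they had been scaled to a common target. The MAS5 version and a genome build are not given in the sources used here, and no sequence was used.

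Deposited values were put on the log2 scale with no pseudocount and not normalized again. The 64 control probe sets and the dimmest 30% of the other 22746 (mean signal under 23.3) were left out. Group differences come from limma 3.58.1 (R 4.3.3), with 1 mean per group over all 8 arrays, the replicate number as a block, eBayes with an intensity trend (3 residual degrees of freedom and 9.41 from the prior) and Benjamini-Hochberg adjustment at 0.05 over the 15922 tested probe sets. The fitting was tested on simulated data. No permutation test was run, because 2 against 2 arrays cannot go below an exact p of 0.333.

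The replicate numbers come from the sample titles. The block on replicate number was part of the rule for this comparison. Same-numbered arrays also deviated together from their group means (r of 0.178 to 0.302 in all 6 pairs of groups). Gene names are those of the platform annotation, updated by locus to a RefSeq gene table. Of the tested probe sets 8793 (55.2%) name 1 gene, 327 name several and 6802 name none, and the last are given by array ID. An array's control level is its brightest signal among 27 bacterial probe sets assumed to be unspiked.

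The genes named are PYE, the 15 largest rises and 15 largest falls among called probe sets that name 1 gene and whose arrays did not overlap, called members of gene lists, all tested iron regulators and uptake genes, the 2 smallest p of other lists described, the 3 largest rises and falls without a name, and the 5 smallest p of the interaction. Others are said to have been picked after their values were seen. Of 508 loci in 34 lists, 93 were matched to a probe set, of which 79 passed the filter. The members and lists were chosen with earlier results of these data known, and the low-oxygen, glucosinolate and clock lists hold genes named there. Promoter motifs were not searched. Alternatives left out the block, the intensity trend, the filter, the arrays with iron or 1 array at a time, or changed the pseudocount, floor, filter or normalization.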

Additional observations from a re-analysis of the deposited data

Results flagged for a closer look

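For 13 of the named probe sets called without iron, the genotype difference without iron differed from that with iron by the interaction term of the limma fit (adjusted p below 0.05). No cause was tested.

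The difference without iron minus that with iron was 3.67 ± 0.42 for AT1G19530, 2.00 ± 0.17 for AT1G33055, 1.50 ± 0.16 for AT4G27450 and 3.59 ± 0.65 for AT4G10270, all of the low-oxygen list. It was -2.38 ± 0.27 for BCAT4 of glucosinolate synthesis and -0.95 ± 0.16 for NAI1. Among other named genes it was 1.87 ± 0.20 for AT5G51010, 1.97 ± 0.29 for AT1G69050, 2.46 ± 0.36 for AT3G49960 and -1.87 ± 0.28 for AT1G21440. Among probe sets without a name it was 1.88 ± 0.17 for probe-259871_at, 1.99 ± 0.16 for probe-251109_at and 3.01 ± 0.43 for probe-264953_at. The 7 that kept this call in every refit without 1 array were BCAT4, AT1G33055, AT4G27450, AT1G19530, AT5G51010, probe-251109_at and probe-259871_at. Without pye-1 +Fe replicate 1 the adjusted p reached 0.202 for NAI1, 0.201 for AT4G10270, 0.169 for AT1G21440, 0.111 for AT1G69050 and 0.152 for AT3G49960. For probe-264953_at it reached 0.0821 without pye-1 +Fe replicate 2. With 2 arrays per group, single outlying arrays were not looked for.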

How the results depend on the processing

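None of the 44 calls named by the rule changed sign under any alternative run. The fall of PYE was called under each of them that tested it (the 50% filter left PYE out). Counts of calls moved with the variance model. Without pairing the arrays by replicate number (no block), 74 probe sets were called without iron (52 higher, 22 lower), 10 with iron, 14 for the interaction and 155 for the iron response of wild type, against 485 with the block. With only the 4 arrays without iron and no block, 75 were called (53 higher, 22 lower), and with the block on those 4 arrays 372. Without the intensity trend, 22 were called (17 higher, 5 lower), 3 with iron, 0 for the interaction and 97 for the wild-type iron response. With no filter on dim probe sets 195 were called, 74 of them lower. When 1 array was left out, the calls without iron ranged from 95 to 322 (58 to 183 higher, 37 to 139 lower), those with iron from 7 to 79, the interaction from 13 to 133 and the wild-type iron response from 194 to 515. The share of calls that were higher was 58.2%, but 70.3% without the block, 77.3% without the trend, and 49.7% without pye-1 -Fe replicate 1. Calls numbered 242 to 278 with the 50% filter, a pseudocount of 16, a floor at the control level or quantile normalization. The cause of these shifts was not tested. Of 44 named calls, 19 were lost without the block, 36 without the trend, 7 without the filter, 3 with quantile normalization, 1 with the pseudocount, and up to 15 when 1 array was left out. Of the low-oxygen list 6 members were called higher, 4 without the block, 2 without the trend and 5 or 6 when 1 array was left out. Of the glucosinolate list 3 were called lower, 1 without the trend and 1 to 3 when 1 array was left out. Of the uptake list none was called, but 2 were with only the 4 arrays without iron, and none on those 4 arrays without the block. Precision is set by 2 arrays per group, and the median SE was 0.305 among the 3981 dimmest probe sets.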
